A study of Mus musculus with 9 samples.

Results

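The vascular connexins examined here are the 4 gap junction genes *Gja1*, *Gja4*, *Gja5* and *Gjc1*, taken by symbol from 33353 symbols that each named a single locus. All 4 were present, and all 4 passed the filter of a mean of at least 1 FPKM, a fragment number scaled by exon length and by the mapped fragments of the library, over the 9 libraries, as did 11306 genes in all. RNA was sequenced from primary murine lung endothelial cells (MLEC), selected with antibodies to ICAM2 and grown in culture, with 3 libraries in each of 3 groups and a separate isolation from the pooled lungs of 4 mice behind each library. The donors were adult C57BL/6J mice, 10 to 12 weeks old, and every group including both controls lacked *Jnk3* (Jnk3-/-). The E3KO cells carried Cdh5-Cre, which is driven by the promoter of the endothelial VE-cadherin gene, together with LoxP alleles of *Jnk1* and *Jnk2* on both chromosomes. The ECtrl cells carried the same Cre with wild-type *Jnk1* and *Jnk2*, while the EfCtrl cells carried the LoxP alleles without Cre. The comparisons ask how the loss of the c-Jun N-terminal kinases from endothelium alters gene expression. ECtrl shares Cre with E3KO, and EfCtrl shares the LoxP alleles. The 2 controls differ from each other in both features, so effects of Cre and of the LoxP alleles cannot be told apart between them.

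Connexins are membrane proteins that assemble into hexameric hemichannels, and hemichannels of neighboring cells dock to form gap junctions that pass ions and small metabolites. *Gja1* encodes Cx43, *Gja4* Cx37, *Gja5* Cx40 and *Gjc1* Cx45. In blood vessels, Cx37 and Cx40 are typical of arterial endothelium, Cx43 is found in endothelium exposed to disturbed flow and in smooth muscle, and Cx45 is best known from smooth muscle and the developing vasculature. Cx37 has been linked to the growth of native collateral arteries.

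RefSeq sequence on the GRCm38.p6 build was matched by symbol for 3 of the 4 genes, and the entry for *Gjc1* was missing. The 250 bases before each RefSeq start are shown because *Gja4* and *Gja5* had lower values together in E3KO cells while *Gja1* overlapped with the controls, and because JNK phosphorylates c-Jun, a subunit of the AP-1 transcription factor. Capitals mark the matches found among 5 motifs searched on both strands, which were AP-1 (TGANTCA), CRE (TGACGTCA), RBPJ (TGGGAA), the GC box (GGGCGG) and the TATA box (TATAAA). No motif contains another, although AP-1 and CRE share their outer letters. Each sequence is written 5′ to 3′ on the strand of its gene.
Gja1 (chr10:56377050-56377299, forward strand): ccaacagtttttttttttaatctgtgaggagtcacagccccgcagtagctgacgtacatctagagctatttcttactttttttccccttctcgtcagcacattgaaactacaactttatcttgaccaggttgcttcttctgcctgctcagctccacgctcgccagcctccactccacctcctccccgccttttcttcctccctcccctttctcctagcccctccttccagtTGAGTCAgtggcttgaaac
Gja4 (chr4:127314040-127314289, reverse strand): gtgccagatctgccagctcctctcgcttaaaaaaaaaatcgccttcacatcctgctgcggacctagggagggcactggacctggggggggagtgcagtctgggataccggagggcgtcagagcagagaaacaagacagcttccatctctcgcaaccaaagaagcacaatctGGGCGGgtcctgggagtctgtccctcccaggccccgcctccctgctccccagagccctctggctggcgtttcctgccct
Gja5 (chr3:97032152-97032401, forward strand): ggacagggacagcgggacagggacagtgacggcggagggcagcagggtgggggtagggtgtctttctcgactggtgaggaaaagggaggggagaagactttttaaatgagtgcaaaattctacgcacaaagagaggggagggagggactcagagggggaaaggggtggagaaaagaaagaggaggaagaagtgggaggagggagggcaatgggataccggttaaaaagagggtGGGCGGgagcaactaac
The *Gja1* window held 1 AP-1 match (TGAGTCA), 19 to 13 bases before the start. Among 32536 promoter windows of the same length, 6.73% held an AP-1 match. The *Gja4* window held 1 GC box, 79 to 74 bases before the start, and the *Gja5* window held 1 GC box, 17 to 12 bases before the start. A GC box was present in 33.0% of all windows. None of the 3 windows held a match to CRE, RBPJ or the TATA box, which were present in 1.56%, 21.6% and 12.3% of all windows. These matches describe letters in the windows and not bound sites.

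Some limits of the series touch the connexin values. *Mapk8* (JNK1), the first targeted gene, had 14.0 to 17.9 FPKM in the 6 controls, 8.77 in E3KO replicate 2 and 4.65 in E3KO replicate 3, but 20.7 in the library labelled E3KO replicate 1, which was above every control. *Mapk9* (JNK2) had 42.7 to 50.9 FPKM in the controls and 27.6, 35.1 and 20.7 in the libraries labelled E3KO replicates 1, 2 and 3, and *Mapk10* (JNK3) was at most 0.270 FPKM in all 9 libraries. In the library labelled E3KO replicate 1, 10 symbols held 96.4% of the summed FPKM, against 40.9% to 56.8% in the others, while the sum over symbols averaging under 5000 FPKM was 420517 there and 388537 to 433172 in the others. The connexin calls are given with and without this library. The cells expressed the endothelial genes *Pecam1* (643 to 798 FPKM) and *Cdh5* (613 to 943 FPKM). They also expressed the lymphatic genes *Lyve1* (1513 to 2050 FPKM) and *Prox1* (58.1 to 158 FPKM). Other members of these marker lists ranged widely. Among the pan-endothelial genes *Vwf* reached only 2.15 FPKM and *Emcn* had 822 to 1557 FPKM, and the lymphatic gene *Ccl21a* had 0.591 to 9.83 FPKM. In bulk cultures, fewer cells of a type and less RNA per cell cannot be told apart.

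*Gja1* was by far the most abundant of the 4 connexins on the length-adjusted FPKM scale, and it supplied 84.01% to 91.9% of their summed FPKM in the controls. The order of mean control levels was *Gja1* (156 ± 14.3 FPKM, SD, n = 6), *Gjc1* (13.0 ± 1.96 FPKM), *Gja4* (3.61 ± 1.40 FPKM) and *Gja5* (2.56 ± 1.24 FPKM). The ranges of *Gja4* (2.09 to 5.56 FPKM) and *Gja5* (1.50 to 4.78 FPKM) overlapped in the controls, although *Gja4* was the higher of this pair in each of the 9 libraries. *Gja1* and *Gjc1* were separated from each other and from *Gja4* and *Gja5* in each library. The same order held for the E3KO means, at 123 ± 32.3, 6.35 ± 0.982, 1.11 ± 0.0456 and 0.771 ± 0.389 FPKM (SD, n = 3).

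**Figure D1:**
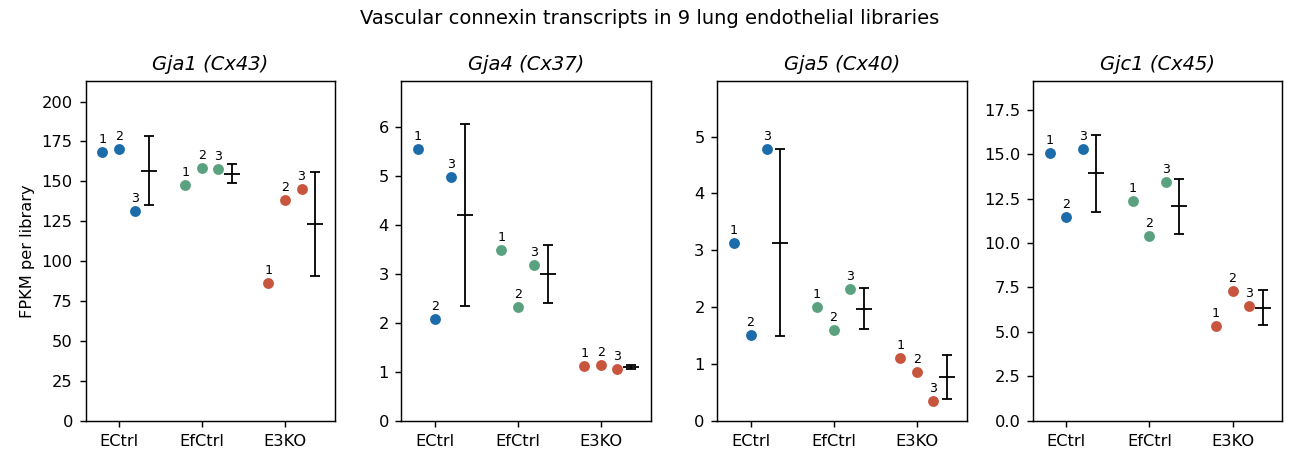
FPKM of each connexin (vertical axes, linear from 0, scaled separately) in ECtrl, EfCtrl and E3KO cells; points are libraries numbered by replicate, and bars beside them give the mean and SD (n = 3). The 3 E3KO libraries lie below all 6 controls for *Gja4*, *Gja5* and *Gjc1*, whereas for *Gja1* the E3KO libraries labelled 2 and 3 lie within the control range.

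*Gja4*, the Cx37 gene (chromosome 4, 127311421 to 127314039, mm10, reverse strand, coding sequence within 1 of 2 exons), was low in every E3KO library. Its FPKM was 5.56, 2.09 and 4.98 in ECtrl replicates 1, 2 and 3. It was 3.49, 2.33 and 3.18 in EfCtrl and 1.13, 1.13 and 1.05 in E3KO cells. The E3KO libraries differed by less than 0.1 FPKM from each other, and the highest of them was below the lowest control. The E3KO mean was 26.3% of the ECtrl mean and 36.8% of the EfCtrl mean. On the log2(FPKM + 1) scale, which understates changes of low genes, the difference was -1.23 ± 0.27 (SE) from ECtrl (limma, adjusted p = 0.0601) and -0.92 ± 0.27 from EfCtrl (adjusted p = 0.148), so neither control alone gave a call. Against the mean of both controls the difference was -1.07 ± 0.23 with a 95% interval of -1.61 to -0.54, and this passed the threshold (adjusted p = 0.0431). The pooled call rested on the full set of libraries: it was kept without ECtrl replicate 2, the lowest *Gja4* control, and lost when any of the other 8 was left out (adjusted p from 0.0718 to 0.129).

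*Gja5*, the Cx40 gene (chromosome 3, 97032416 to 97053634, forward strand), overlaps the span of the antisense gene *4930573H18Rik*. Use of strand in the counting is not given in the sources used here, and overlap of the exons was not examined. Whether reads of the antisense gene entered the *Gja5* values was not tested. The FPKM of *Gja5* was 3.13, 1.50 and 4.78 in the ECtrl libraries. It was 2.00, 1.60 and 2.32 in the EfCtrl libraries and 1.11, 0.855 and 0.347 in the E3KO libraries. The groups of controls and E3KO did not overlap, but the gap between the lowest control (1.50) and the highest E3KO library (1.11) was narrow beside the spread of ECtrl. The E3KO mean was 24.6% of the ECtrl mean and 39.1% of the EfCtrl mean. The log2 difference was -1.17 ± 0.30 from ECtrl, -0.77 ± 0.30 from EfCtrl and -0.97 ± 0.26 from the mean of both (limma, adjusted p = 0.0863, 0.246 and 0.0771), and none passed the threshold. The pooled interval was -1.56 to -0.37. Without ECtrl replicate 2, the lowest *Gja5* control, the pooled difference was -1.13 and passed (adjusted p = 0.0318).

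*Gjc1*, the Cx45 gene (chromosome 11, 102799579 to 102819700, reverse strand, coding sequence within 1 of 3 exons), was the connexin whose call against the mean of both controls held under most settings. Its FPKM was 15.0, 11.4 and 15.3 in ECtrl, 12.3, 10.4 and 13.4 in EfCtrl, and 5.32, 7.27 and 6.45 in E3KO. Every E3KO library was below every control, and the SD within E3KO was 0.982 FPKM. The E3KO mean was 45.6% of the ECtrl mean and 52.6% of the EfCtrl mean. The log2 difference was -1.02 ± 0.16 from ECtrl, which passed (limma, adjusted p = 0.0301), and -0.83 ± 0.16 from EfCtrl, which did not (adjusted p = 0.0596). Against the mean of both controls *Gjc1* fell by 0.93 ± 0.14 (95% interval -1.25 to -0.61, adjusted p = 0.0166). The pooled call was lost without EfCtrl replicate 3 (adjusted p = 0.0543) or E3KO replicate 3 (adjusted p = 0.0800) and kept without any other single library. The call against ECtrl was less firm, since it was kept only without ECtrl replicate 2 or E3KO replicate 2 and reached an adjusted p of up to 0.117 when another library was left out.

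*Gja1*, the Cx43 gene (chromosome 10, 56377300 to 56390419, forward strand, coding sequence within 1 of 2 exons), did not separate the groups. Its FPKM was 168, 170 and 132 in ECtrl, 148, 158 and 158 in EfCtrl, and 86.1, 139 and 145 in E3KO. The library labelled E3KO replicate 1 was below all controls, and the other two E3KO libraries were above ECtrl replicate 3. The E3KO mean was 79.1% of the control mean. The log2 difference was -0.37 from ECtrl, -0.36 from EfCtrl and -0.37 from their mean (limma, adjusted p = 0.354, 0.395 and 0.257), with a pooled 95% interval of -0.77 to 0.04. Without the library labelled E3KO replicate 1 the pooled difference was -0.13 (adjusted p = 0.570). These intervals leave room for a reduction of *Gja1*, and a missed threshold does not show equal levels.

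**Figure D2:**
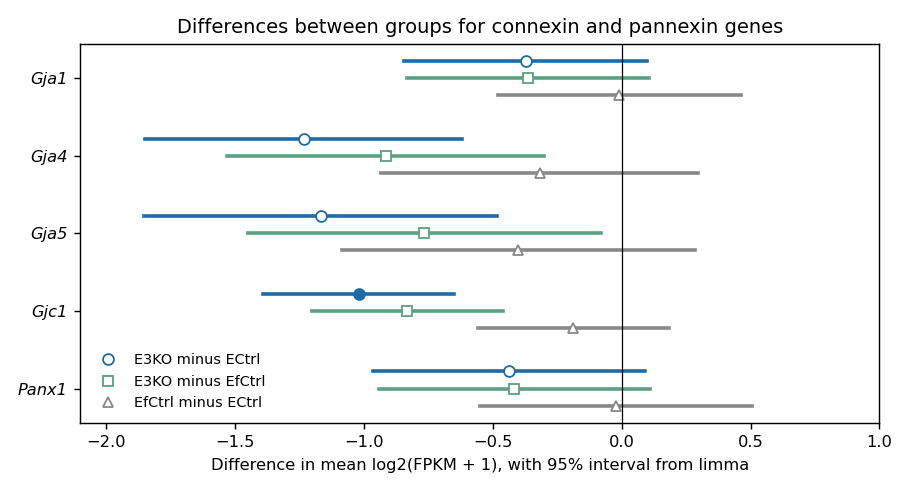
Differences in mean log2(FPKM + 1) between groups for the 4 vascular connexins and *Panx1*; symbols give the estimate, lines its 95% interval from limma, and filled symbols an adjusted p under 0.05. Only *Gjc1* against ECtrl is filled (-1.02), and the intervals for EfCtrl minus ECtrl cross 0 for all 5 genes.

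By count, 1 of the 4 connexins (*Gjc1*) was called lower against ECtrl, where 1.28% of all tested genes were called lower. Against EfCtrl 0 of 4 were called by limma, with 0.504% of all genes called lower. In that comparison 3 of the 4 had an unadjusted limma p under 0.05, as did 1947 of the 11306 tested genes in either direction. Against the mean of both controls 2 of 4 (*Gja4* and *Gjc1*) were called lower, with 2.88% of all genes called lower. Without the library labelled E3KO replicate 1, 0 were called against ECtrl by limma (*Gjc1* had an adjusted p of 0.0511) and 1 (*Gjc1*) against the mean of both. The median log2 difference of the 4 genes from both controls was -0.95, and that of all tested genes was -0.09. In this pooled comparison 1.76% of tested genes had a lower log2 difference than *Gja4*, 2.42% a lower one than *Gja5*, 2.73% a lower one than *Gjc1* and 19.7% a lower one than *Gja1*. Of the 473 genes called in the pooled comparison 31.1% were higher in E3KO, and after each library was centred on its median the share was 47.2%. All 4 connexins kept their negative direction in each comparison of E3KO with the controls under that centring and under quantile normalization.

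The 3 E3KO libraries all lay below the 6 controls for 3 of the 4 connexins, and for 11.3% of all tested genes. Exact two-sided permutation of the 3 E3KO and 6 control libraries on log2(FPKM + 1), which cannot give a p below 0.0119 over its 84 splits, gave that smallest value for *Gja4* and for *Gjc1*. The exact permutation p was 0.0238 for *Gja5* and 0.0476 for *Gja1*, and these 4 values are unadjusted. The value for *Gja1* passed 0.05 in no leave-one-out analysis except that without ECtrl replicate 3 (exact p = 0.0179), and it was 0.321 without the library labelled E3KO replicate 1. The value for *Gja5* was 0.0714 without E3KO replicate 2 or replicate 3. Exact permutation of 3 against 3 libraries cannot go below a p of 0.1 and was not used.

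No connexin was called between the 2 controls by limma (adjusted p = 1 for each). The EfCtrl mean was 98.7% of the ECtrl mean for *Gja1*, 71.3% for *Gja4*, 62.9% for *Gja5* and 86.7% for *Gjc1*. The log2 differences of EfCtrl from ECtrl were -0.0092, -0.32, -0.40 and -0.19, and the 95% interval for *Gja5* (-1.09 to 0.28) still held a sizeable reduction. Across all genes 0.0% were called between the controls, with 201 genes at an unadjusted p under 0.05. The comparison of E3KO with ECtrl and that with EfCtrl share the E3KO libraries, so their values for the connexins are not independent.

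**Figure D3:**
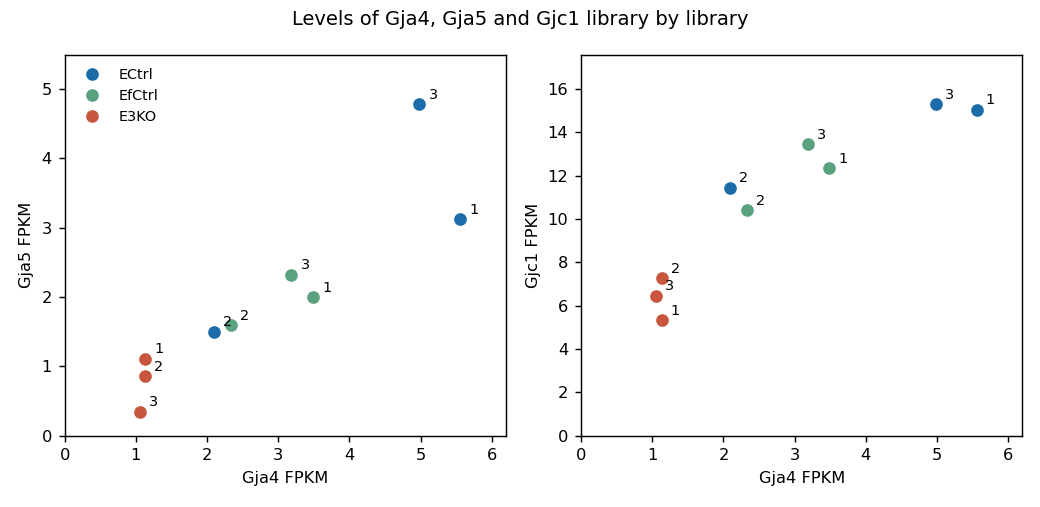
*Gja5* FPKM (left panel) and *Gjc1* FPKM (right panel) against *Gja4* FPKM on linear axes, 1 point per library, numbered by replicate and colored by group. ECtrl replicates 1 and 3 are the highest for all 3 genes, ECtrl replicate 2 and EfCtrl replicate 2 are the lowest controls, and the 3 E3KO libraries lie together at the lower left.

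*Gja4*, *Gja5* and *Gjc1* varied among the controls in a shared order that *Gja1* did not follow. For each of these 3 genes, ECtrl replicates 1 and 3 had the 2 highest values, EfCtrl replicates 1 and 3 came next, and ECtrl replicate 2 and EfCtrl replicate 2 had the lowest values. *Gja1* was lowest among the controls in ECtrl replicate 3 (132 FPKM), where *Gja5* (4.78 FPKM) and *Gjc1* (15.3 FPKM) were highest. ECtrl replicate 2 shows the reverse, with the highest *Gja1* (170 FPKM) and the lowest *Gja4* (2.09 FPKM). This is a description over 6 libraries, in which replicate 2 was the lowest of each control group for *Gja4*, *Gja5* and *Gjc1*. Within E3KO, replicate 2 was the highest for *Gjc1* (7.27 FPKM) and between the other libraries for *Gja5* (0.855 FPKM).

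Sums, shares and ratios restate these levels as a mix of connexin transcripts. The summed FPKM of *Gja4*, *Gja5* and *Gjc1* was 14.3 to 25.0 in the controls and 7.56, 9.26 and 7.85 in the libraries labelled E3KO replicates 1, 2 and 3. The 4 genes together had a summed FPKM of 157 to 192 across control libraries. Their sum was 93.6, 148 and 153 FPKM in E3KO, of which *Gja1* supplied 91.93%, 93.7% and 94.9%. The highest control share of *Gja1* was 91.89%, so the shares barely separated. The ratio of *Gja1* to *Gjc1* was 8.61 to 15.2 in the controls and 16.2, 19.0 and 22.5 in E3KO, so the ranges did not overlap. The ratio of *Gja1* to *Gja4* was 26.4 to 81.5 in the controls and 76.2, 122 and 138 in E3KO, and these ranges did overlap. The ratio of *Gja1* to *Gja5* also overlapped, at 27.5 to 113 in the controls and 77.4 to 418 in E3KO.

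**Figure D4:**
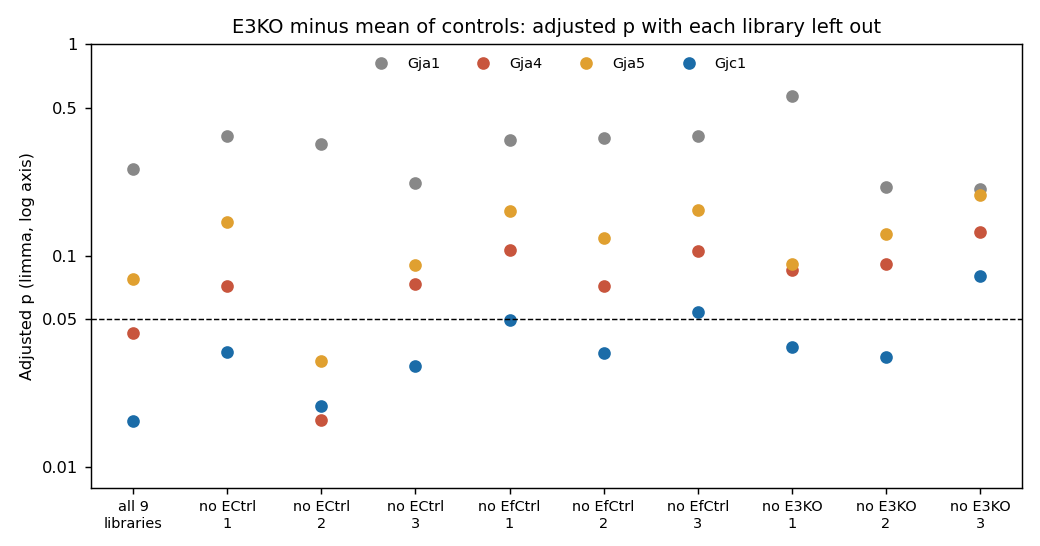
Adjusted p from limma (log axis) for E3KO minus the mean of the controls, with all 9 libraries and with each library left out in turn; the dashed line marks 0.05. *Gjc1* stays under the line except without EfCtrl replicate 3 and E3KO replicate 3, *Gja4* crosses it in 8 of 9 omissions, and *Gja1* lies above it throughout.

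The remaining connexin genes were at or near 0. Of 16 other connexin genes, 5 were listed at 0 in all 9 libraries, and none passed the filter. Of 3 pannexins, which form membrane channels without docking between cells, only *Panx1* passed the filter. *Panx1* had 2.77, 3.78 and 2.70 FPKM in ECtrl, 3.09, 2.21 and 3.87 in EfCtrl and 1.20, 2.46 and 2.55 in E3KO. E3KO overlapped with the controls, and the log2 difference from their mean was -0.43 (limma, adjusted p = 0.241).

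Among 19 tested genes for connexin partners, trafficking and turnover, 2 were called lower and 0 higher in E3KO against the mean of the controls, where 2.88% of all tested genes were called lower. The median log2 difference of the 19 genes was -0.06, near the -0.09 of all genes. *Cav1* encodes caveolin-1, a scaffold of caveolae that binds Cx43, and it had 613 to 725 FPKM in the controls and 415, 410 and 421 in E3KO. *Cav1* fell by 0.69 ± 0.08 on the log2 scale (limma, adjusted p = 0.0119) from the mean of the controls. It was also called lower against ECtrl and against EfCtrl, but the call against ECtrl was lost in 4 of 9 omissions of a library (limma, adjusted p up to 0.0942), and that against EfCtrl in 7 of 9 (up to 0.188), among them the omission of the library labelled E3KO replicate 1 (0.0607). Without E3KO replicate 3 the pooled call of *Cav1* was lost (adjusted p = 0.0694). *Dbn1* encodes drebrin, an actin-binding protein that holds Cx43 at the membrane, and it had 18.6 to 22.8 FPKM in the controls and 11.9, 15.6 and 14.9 in E3KO. *Dbn1* fell by 0.52 ± 0.11 (adjusted p = 0.0395), and this call was lost whichever library was left out (adjusted p from 0.0575 to 0.103). *Tjp1*, chosen after its values were seen, encodes ZO-1, the scaffold that borders gap junction plaques. *Tjp1* had 90.8 to 150 FPKM in the controls and 235, 198 and 209 in E3KO. Its log2 difference was 0.71 ± 0.16 and narrowly missed the threshold (adjusted p = 0.0502).

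Of 17 tested arterial endothelial genes, 3 were called lower and 0 higher against the mean of the controls, beside 2.88% of all tested genes called lower, and the median log2 difference of the 17 was -0.14. *Dkk2*, which encodes a secreted Wnt modulator, fell by 1.51 ± 0.19 on the log2 scale (limma, adjusted p = 0.0121), from 9.05 to 17.2 FPKM in the controls to 3.14, 4.45 and 2.88 in E3KO. *Hey1*, a transcription factor induced by Notch, fell by 1.06 ± 0.17 (adjusted p = 0.0199), from 5.08 to 10.8 FPKM to 2.05, 2.99 and 2.91. *Sema3g*, a secreted semaphorin, fell by 0.98 ± 0.16 (adjusted p = 0.0178), from 1.21 to 2.77 FPKM to 0.371, 0.527 and 0.354. Without E3KO replicate 3 none of these calls was kept (limma, adjusted p = 0.0723 for *Dkk2*, 0.0800 for *Hey1* and 0.0884 for *Sema3g*). *Hey1* also missed without EfCtrl replicate 1 (0.0582) or replicate 3 (0.0640), and *Sema3g* without EfCtrl replicate 3 (0.0588). The other 14 arterial genes did not pass, and they went both ways. *Sox17* and *Fbln5* had higher means in E3KO. Their FPKM was 1.95 to 3.55 and 29.1 to 35.4 in the controls, and 3.67 to 6.13 and 38.2 to 40.8 in E3KO. *Dll4* had every E3KO library below every control (3.13 to 5.53 against 6.52 to 9.68 FPKM), as did 11.3% of all tested genes. Against ECtrl *Dkk2*, *Hey1* and *Sema3g* were again the 3 of the 17 called lower (1.28% of all genes). Against EfCtrl 1 was called lower, *Dkk2* (0.504% of all genes). The calls of *Hey1* and *Sema3g* against ECtrl were each lost in 8 of 9 omissions of a library (limma, adjusted p = 0.0510 and 0.0537 without the library labelled E3KO replicate 1). The call of *Dkk2* was lost in 4 of 9 omissions against ECtrl and in 7 of 9 against EfCtrl (adjusted p = 0.0694 without the library labelled E3KO replicate 1, where 0 genes in all were called lower against EfCtrl by limma and 1957 had an unadjusted p under 0.05).

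**Figure D5:**
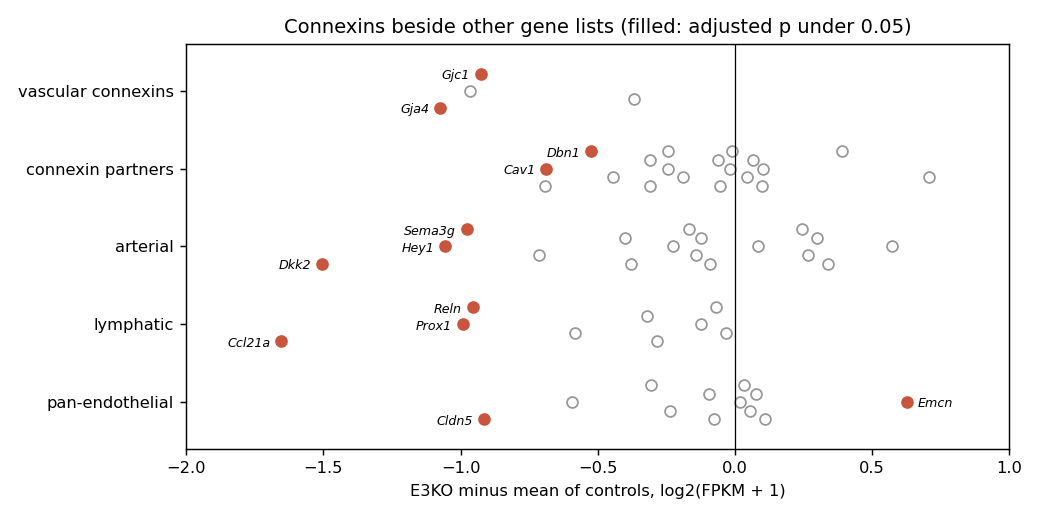
Log2 difference of E3KO from the mean of the controls for each tested gene of 5 lists (horizontal axis; vertical offsets within a list only separate points), with named filled points at an adjusted p under 0.05 by limma. *Gja4* (-1.07) and *Gjc1* (-0.93) are filled among the connexins, and 3 of 17 arterial and 2 of 19 partner genes are filled, all to the left of 0.

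Markers of other cells moved between groups to varying degrees. Calls here are against the mean of both controls, where 326 of 11306 tested genes (2.88%) were called lower and 147 higher. In that comparison 2633 of the 11306 genes had an unadjusted limma p under 0.05 in either direction. Of 10 smooth muscle and pericyte markers 3 passed the filter and 0 were called by limma against both controls (1, *Acta2*, had an unadjusted p under 0.05), and the summed list was 14.7 to 42.4 FPKM in ECtrl, 29.5 to 66.5 in EfCtrl and 17.8 to 22.3 in E3KO. The tested markers made up most of it: *Acta2* had 4.31, 19.4 and 15.6 FPKM in ECtrl, 11.6, 28.1 and 35.1 in EfCtrl and 4.49, 6.32 and 5.74 in E3KO. *Tagln* had 3.74 to 18.8 FPKM in the controls and 3.07, 5.51 and 7.13 in E3KO, and *Kcnj8* had 6.19 to 10.2 FPKM in all libraries. Of the markers under the filter, *Myh11* was at most 0.325 FPKM and *Cspg4* at most 0.0186 FPKM in any library. *Cnn1* had 0.119 to 1.11 FPKM in the controls and at most 0.103 in E3KO. *Notch3* went the other way, with at most 0.0947 FPKM in the controls and 0.238 to 0.263 in E3KO. Of 8 fibroblast markers 5 were tested and 1 (*Fbn1*) was called lower, with control sums between 14.2 and 38.4 FPKM and E3KO sums between 8.14 and 16.4. Of 9 measured leukocyte and macrophage markers 7 were tested and 0 called by limma (5 had an unadjusted p under 0.05, all higher in E3KO), with sums of 52.0 to 156 FPKM in ECtrl, 150 to 257 in EfCtrl and 190 to 326 in E3KO. Of 9 lymphatic endothelial markers 3 (*Prox1*, *Reln* and *Ccl21a*) were called lower and 0 higher, with control sums between 2648 and 3485 FPKM and E3KO sums between 2411 and 2769. Of 12 pan-endothelial markers *Emcn* was called higher and *Cldn5* lower. The epithelial sum was at most 2.97 FPKM except in the library labelled E3KO replicate 1 (49.8 FPKM, of which *Scgb1a1* gave 46.2). The part of these cell types in the connexin results was not tested.

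The genes whose log2(FPKM + 1) followed each connexin most closely over the 9 libraries, by Pearson's r and without a test, were *Cetn2* (0.989), *Gm11583* (0.987) and *9830147E19Rik* (0.986) for *Gja1*. They were *Snx9* (0.977), *Hjurp* (0.976) and *Dtx1* (0.974) for *Gja4*. For *Gja5* they were *Rab6b* (0.982), *Snx25* (0.977) and *Fbxo21* (0.975), and for *Gjc1* *Podxl* (0.990), *Tacc3* (0.983) and *Cbx2* (0.982). No gene was among the 3 closest for more than 1 connexin. The 9 points include the difference between the groups and were the best among all 11306 genes, so high values of r were bound to occur.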

How the data were processed

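Libraries of messenger RNA were sequenced as paired 40-base reads. The authors aligned reads to the mm10 build with TopHat2 and Bowtie, and estimated FPKM with Cufflinks (1.0.3 in the submitters' processing notes); Cuffmerge and Cuffdiff were used for comparisons. The deposited tables hold an FPKM value for each locus in each library, and also the group FPKM, log2 fold changes, p-values and q-values of the authors' comparisons, which were not used. Of 37104 loci, 3749 share a symbol with another and 2 lack a value, and these were left out, leaving 33353 symbols. FPKM holds no fragment numbers and low values showed no clear step of 1 read (8.43% to 12.0% of 587 low genes in the commonest step), so depth per gene is unknown and no counting intervals were made. Low values such as those of *Gja5* are the least precise.

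Groups were taken from the labels. A model with 3 group means and no block was fitted to log2(FPKM + 1) with limma 3.58.1 (R 4.3.3) over all 11306 genes with a mean of at least 1 FPKM across the 9 libraries, with Benjamini-Hochberg adjustment over all of them and a call at an adjusted p under 0.05. The fit was tested on simulated data. Single connexins were also compared by exact two-sided permutation (Python 3.11.15, numpy 2.4.6). Lengths and overlaps were read from GENCODE M21 and promoters from RefSeq. The genes named are the 4 connexins, *Panx1* as the only other connexin or pannexin tested, and called genes of the partner and arterial lists. The 3 closest genes by correlation and the JNK genes are also named. *Tjp1*, *Sox17*, *Fbln5* and *Dll4*, chosen after their values were seen, and the markers lie outside that rule. The connexins and lists were chosen with earlier results of these data known. Alternatives covered the pseudocount, filters, centring, quantile normalization, a variance trend, array weights, a replicate block, fits of 2 groups and omission of each library.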

Additional observations from a re-analysis of the deposited data

How the results depend on the processing

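With 1 library left out, the log2 difference from the mean of the controls ran from -1.24 to -0.97 for *Gja4*, -1.13 to -0.78 for *Gja5*, -1.02 to -0.82 for *Gjc1* and -0.50 to -0.13 for *Gja1*. The differences used in the exact permutation ran from -0.50 to -0.13 for *Gja1* and -1.11 to -0.78 for *Gja5*. The differences from ECtrl ran from -1.57 to -1.03 for *Gja4*, -1.49 to -0.88 for *Gja5* and -1.15 to -0.92 for *Gjc1*, and *Gja4* (adjusted p = 0.0257) and *Gja5* (adjusted p = 0.0446) passed only without ECtrl replicate 2. For EfCtrl minus ECtrl the *Gja1* difference ran from -0.13 to 0.055, changing sign without ECtrl replicate 1, ECtrl replicate 2 or EfCtrl replicate 1, and it was 0.012 under quantile normalization. The number of genes called ran from 0 (without E3KO replicate 3) to 145 against ECtrl, 1 (without the library labelled E3KO replicate 1) to 186 against EfCtrl, 0 to 4 between the controls and 9 (without E3KO replicate 3) to 384 against both controls.

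The call of *Gja4* against both controls was lost without a filter on low values (-1.07, adjusted p = 0.0801) and under quantile normalization (-0.91, adjusted p = 0.0712), and the call of *Gjc1* against ECtrl was lost without the filter (-1.02, adjusted p = 0.0502) and when only the 2 groups were fitted (-1.02, adjusted p = 0.152). With array weights, the differences from EfCtrl passed for *Gja4* (-0.91, adjusted p = 0.0285), *Gja5* (-0.92, adjusted p = 0.0364) and *Gjc1* (-0.75, adjusted p = 0.0107), as did that of *Gja5* from both controls (-1.06, adjusted p = 0.0191). *Gjc1* also passed against EfCtrl with a minimum of 5 FPKM (-0.83, adjusted p = 0.0479), where *Gja4* and *Gja5* were not tested. The exact permutation of *Gja1* did not pass after centring (-0.28, exact p = 0.131). Genes called against ECtrl were 227 in the reported analysis, 95 without the filter, 415 with array weights and 0 when only the 2 groups were fitted (1567 at an unadjusted p under 0.05). Genes called against EfCtrl were 95 in the reported analysis, 44 with a pseudocount of 0.1, 17 without the filter, 1201 with array weights and 25 when only the 2 groups were fitted. Genes called against both controls were 473 and, with array weights, 1324. After centring, the share of calls that were higher went from 36.1% to 46.0% against ECtrl, and against EfCtrl from 38 of 95 calls to 41 of 74 calls (55.4%). The causes of these differences were not tested.

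Replicate numbers mark isolations from different mice. Deviations from the group mean correlated between libraries of the same number at -0.0404 to 0.126 (9 pairs) and between libraries of different numbers at -0.214 to 0.0769 (18 pairs). The highest values were between ECtrl and EfCtrl, at 0.126 for replicates 1 and 0.120 for replicates 2. For replicates 3 of these controls the value was -0.0404. The main fit did not take the numbers as pairs. With the replicate number as a block, 1 gene was called against ECtrl, 1 against EfCtrl and 181 against both controls, with *Gjc1* at -1.02 against ECtrl (adjusted p = 0.0649) and *Gja4* at -1.07 against both controls (adjusted p = 0.0558), while *Gjc1* against both controls still passed (adjusted p = 0.0457).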
